A study of Mus musculus with 8 samples.

Results

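Transcription factors that set the identity of the corneal epithelium were compared between the limbus and the cornea of the mouse eye. The set held 9 genes, Pax6, Klf4, Klf5, Ehf, Elf3, Trp63, Grhl3, Ovol1 and Sox9, and was taken by gene symbol from the 23418 symbols in the deposited table. All 9 were present, and all had more than 3 sequencing reads in both tissues. The limbus is the ring between cornea and conjunctiva in which the limbal epithelial stem cells reside, and the study sequenced total RNA to screen for molecules that differ between it and the cornea. Tissue came from 16 eyes of 8-week-old wild type C57BL/6J mice, the same strain, age and genotype in both groups, with no treatment named in the sources used here. Limbal rims made up the limbus group and corneal buttons the cornea group, each pooled before RNA extraction. Both were whole tissue, in which epithelium is mixed with other cells, so fewer cells of a type and less RNA per cell cannot be told apart. GEO lists 4 numbered samples per tissue, but the deposited table was built from 1 library per tissue. The ratios below therefore compare these 2 libraries, carry no p-value, and have 95% intervals (exact Clopper-Pearson) that cover counting error only. The library depth on named genes was 26104317 reads for the cornea and 21182025 for the limbus.

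Corneal epithelial cells are made throughout life from the limbal stem cells, and a small group of DNA-binding proteins keeps them corneal. Pax6, a paired and homeodomain protein, is the master regulator of eye development, and its loss turns corneal epithelium towards skin. Klf4 and Klf5 are zinc finger proteins of the Krüppel-like family that bind CACCC-type elements, and both are needed for corneal epithelial maturation and barrier. Ehf and Elf3 belong to the epithelium-specific branch of the ETS proteins, which recognize a GGAA core. Trp63 encodes p63, the factor that builds the basal layer of stratified epithelia and is widely used as a limbal stem cell marker. Grhl3, a grainyhead-like protein, and Ovol1, an OVO-like zinc finger protein, act late in epithelial differentiation. Sox9 marks progenitor pools in many epithelia and is also the master regulator of cartilage.

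The label of each tissue was checked against markers of the cells it could hold. Markers of the corneal epithelium were higher in the cornea for 4 of 4 genes, with a summed level of 98332 reads per 1000000 reads on named genes (RPM) against 46128 in the limbus. Krt12, the keratin of the differentiated corneal epithelium, had 1137735 corneal and 233324 limbal reads. Conjunctival markers were higher in the limbus for 5 of 5 genes with enough reads, and their summed level was 3762 RPM in the cornea and 15173 in the limbus. The conjunctival keratin Krt4 had 2138 corneal and 71498 limbal reads, whereas the goblet cell mucin Muc5ac had 1 read in each. This list also holds Krt19, which the study took as a gene to expect in the limbus itself. Lens markers were higher in the limbus for 8 of 8 genes, from 149 to 761 RPM summed. Retinal markers were higher for 7 of 7, from 24.6 to 281, and those of pigmented tissue for 6 of 6, from 12.4 to 76.7. Schwann cell markers were higher for 5 of 5, from 193 to 372 RPM. Cartilage markers went from 1.92 to 9.39 RPM, epidermal markers from 14.1 to 21.1 and keratocyte markers from 2786 to 4168. Of the keratocyte genes 3 were beyond counting error towards the limbus and 2 towards the cornea. These 2 were Kera, with 12119 corneal and 1423 limbal reads, and Aldh1a1, with 7369 and 1548. The limbal library thus held more marker RNA of neighboring tissues, and its 14 pan-epithelial genes had a lower summed level, 8736 RPM when compared to 10874 in the cornea, although 7 of the 14 were higher in the limbus on this scale and their median log2 ratio was 0.032. The part of these differences in the results on the 9 factors was not tested.

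**Figure D1:**
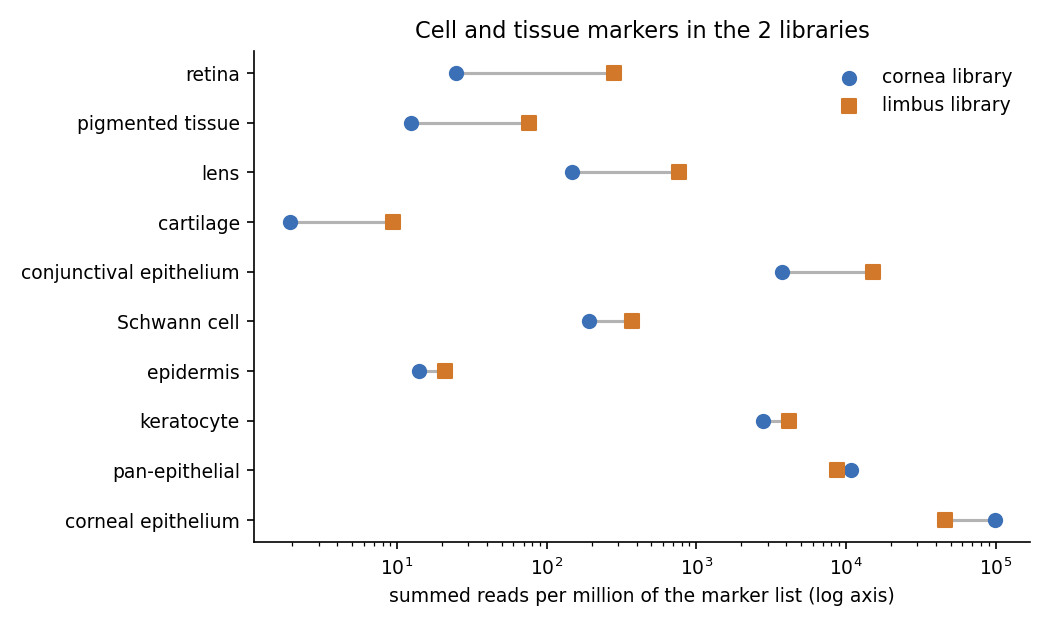
Summed RPM of each marker list (log axis) in the cornea library (circles) and the limbus library (squares), 1 library per tissue and no error bars. Retinal markers went from 24.6 to 281 and conjunctival markers from 3762 to 15173, whereas corneal epithelial markers went from 98332 to 46128.

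The 9 factors divided into 4 with more RNA in the cornea (Klf4, Trp63, Ehf and Pax6) and 5 with more in the limbus (Grhl3, Klf5, Elf3, Ovol1 and Sox9). For each member the interval of its ratio left out 0, as it did for 73.7% of the 13862 genes tested (40.6% beyond counting error towards the cornea and 33.2% towards the limbus). The log2 ratio of the limbus over the cornea, after division by the size factors of the table, ran from -1.27 for Klf4 to 0.89 for Sox9. Klf4 and Trp63 were more than 2-fold higher in the cornea, where 8.99% of all genes were. No member was more than 2-fold higher in the limbus, where 15.5% of all genes were, so that 2 of 9 passed 2-fold in either direction beside 24.4% of all genes. At 1.5-fold, 4 members were higher in the cornea (21.5% of all genes) and 1, Sox9, in the limbus (21.7% of all genes). These counts turned over with the scaling, which moves every gene by the same amount. With total reads 2 members were 1.5-fold higher in the cornea (14.3% of all genes) and 4 in the limbus (27.4%). With pan-epithelial reads 1 was higher in the cornea (7.16% of all genes) and 5 in the limbus (43.2%). The median over the 9 members was 0.35, beside -0.05 over all genes. A total of 8 members had a mean of at least 1000 normalized reads, and among the 4300 genes at that level 7.98% were more than 2-fold higher in the cornea and 3.63% in the limbus, with a median of -0.20. At that level 58.0% of genes were beyond counting error towards the cornea and 28.5% towards the limbus.

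**Figure D2:**
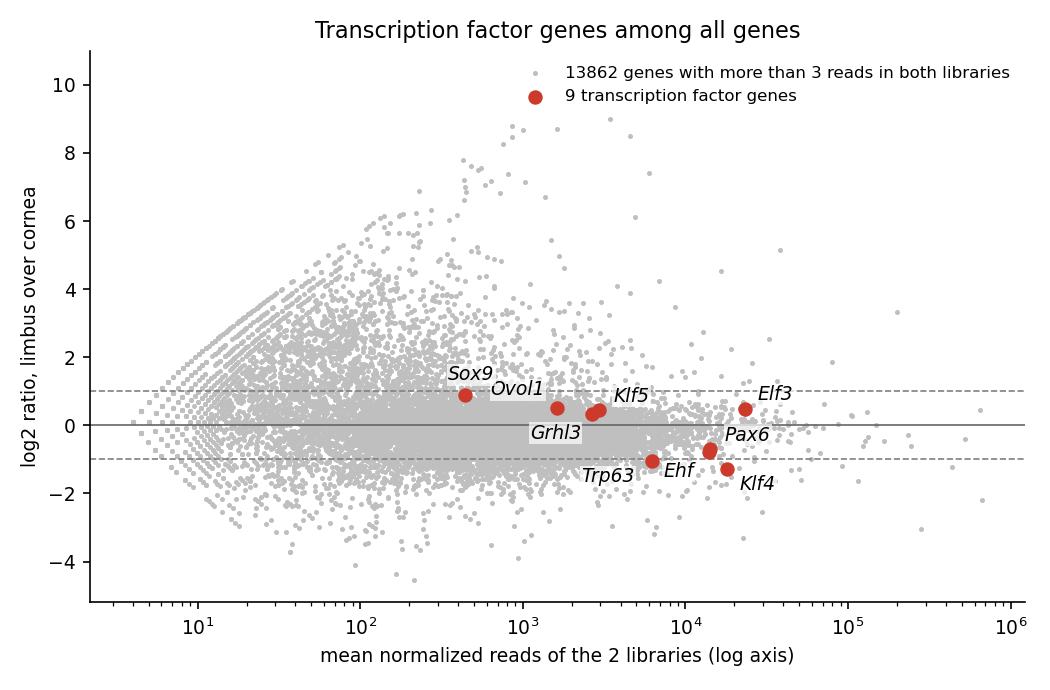
Mean normalized reads of the 2 libraries (log axis) against the log2 ratio of the limbus over the cornea for 13862 genes (grey) and the 9 transcription factor genes (red), 1 library per tissue, with dashed lines at 2-fold. Klf4 and Trp63 lie below the lower line at -1.27 and -1.06, and no member lies above the upper line.

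The direction of all 9 members was the same under each scaling tried, but their sizes moved. Scaling to total reads added 0.21 to each log2 ratio and to that of every other gene, so that 58.9% of genes were higher in the limbus in place of 46.6%. Scaling to the summed reads of the 14 pan-epithelial genes added 0.52, and 75.7% of genes were then higher in the limbus. Relative to these epithelial genes, the ratio of Klf4 was -0.75, of Trp63 -0.54, of Ehf -0.27 and of Pax6 -0.17, with the interval of Pax6 at -0.21 to -0.14. On the same scale Grhl3 was at 0.87, Klf5 at 0.98, Elf3 at 1.01, Ovol1 at 1.03 and Sox9 at 1.41. On it no member was more than 2-fold higher in the cornea, and Elf3, Ovol1 and Sox9 passed 2-fold towards the limbus. This scale rests largely on Dsp and Perp, desmosomal and junctional genes that had 88716 and 81644 of the 283866 pan-epithelial reads of the cornea. When the libraries were instead scaled so that the median of the 14 genes was 0, a choice made after seeing the data that added 0.17, Klf4 stood at -1.10 and Sox9 at 1.07 and no other member passed 2-fold.

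**Figure D3:**
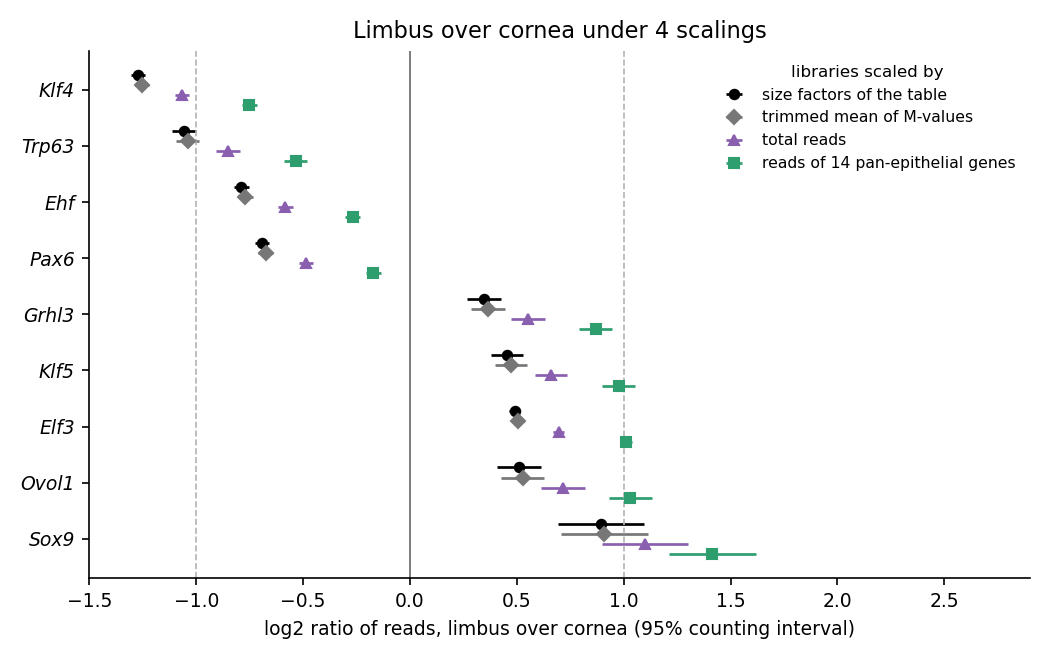
The log2 ratio of reads of the limbus over the cornea for each factor under 4 scalings of the libraries, as points with 95% intervals that cover counting error only, with dashed lines at 2-fold. The 4 upper genes stay below 0 and the 5 lower genes stay above 0 under each scaling, Pax6 coming closest to 0 at -0.17.

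Levels of different genes were compared per exon length, as RPM divided by the exon length in kilobases (RPKM), so on the scale of total reads. In the cornea the order was Elf3 at 347 RPKM, Klf4 at 332, Ehf at 126, Pax6 at 59.4, Trp63 at 39.9, Grhl3 at 33.4, Klf5 at 18.9, Ovol1 at 15.3 and Sox9 at 2.96. In the limbus Elf3 stood at 563 RPKM, Klf4 at 159, Ehf at 84.4, Grhl3 at 49.0, Pax6 at 42.4, Klf5 at 29.8, Ovol1 at 25.1, Trp63 at 22.1 and Sox9 at 6.33. Counting intervals of neighbors did not overlap in either order, though with 1 library the spread between samples is unknown. Elf3 headed both orders and Sox9 closed both, while Trp63 went from the fifth place to the eighth and Grhl3 passed Pax6. The length was that of all annotated exons of a gene merged, which is long for genes with many transcripts such as Pax6 (11694 bases over 26 transcripts) and lowers their RPKM.

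**Figure D4:**
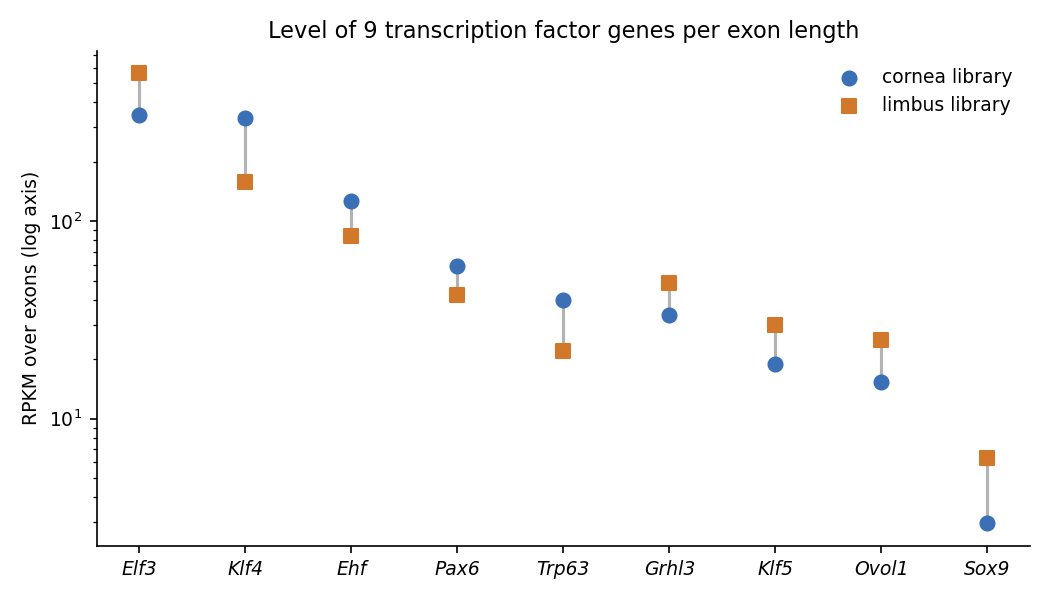
Level of each factor in RPKM over exons (log axis) in the cornea library (circles) and the limbus library (squares), ordered by the level in the cornea, 1 library per tissue and no error bars. Elf3 went from 347 in the cornea to 563 in the limbus and Klf4 from 332 to 159, while Sox9 was lowest in both at 2.96 and 6.33.

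The summed RNA of the 9 factors was 3775 RPM in the cornea and 3288 in the limbus. As follows from how the sides were formed, the 5 limbus-side factors gave a larger share there, 27.2% of the reads of the set in the cornea and 50.3% in the limbus. Klf4, Trp63, Ehf and Pax6 together went from 2748 RPM in the cornea to 1636 in the limbus, and the other 5 from 1027 to 1653.

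Promoter windows, from 250 bases before to 50 after a transcription start, were at hand from RefSeq (GRCm38.p6) for 4 of the 9 genes, with 2 starts for Pax6, so 5 windows in all. No window was used for Klf5, Ehf, Trp63, Ovol1 or Sox9. The stretches below, 250 bases before the start and 10 after, are shown for the cornea-side genes Klf4 and Pax6 and then the limbus-side genes Elf3 and Grhl3, since CACCC elements, which Krüppel-like factors bind, were found in some and not in others. Capitals mark a match to a searched motif on either strand.
Klf4, chr4:55532466-55532725, minus strand: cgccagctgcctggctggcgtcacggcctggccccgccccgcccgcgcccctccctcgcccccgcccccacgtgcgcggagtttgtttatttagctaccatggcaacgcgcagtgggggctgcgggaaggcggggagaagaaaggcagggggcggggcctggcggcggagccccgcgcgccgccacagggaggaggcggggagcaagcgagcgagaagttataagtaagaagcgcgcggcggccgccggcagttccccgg
Pax6, upstream start, chr2:105668646-105668905, plus strand: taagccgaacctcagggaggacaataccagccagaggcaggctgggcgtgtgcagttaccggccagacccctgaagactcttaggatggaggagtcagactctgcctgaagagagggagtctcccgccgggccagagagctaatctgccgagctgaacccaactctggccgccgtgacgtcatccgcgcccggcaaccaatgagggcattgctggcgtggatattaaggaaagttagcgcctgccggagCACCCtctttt
Pax6, downstream start, chr2:105682213-105682472, plus strand: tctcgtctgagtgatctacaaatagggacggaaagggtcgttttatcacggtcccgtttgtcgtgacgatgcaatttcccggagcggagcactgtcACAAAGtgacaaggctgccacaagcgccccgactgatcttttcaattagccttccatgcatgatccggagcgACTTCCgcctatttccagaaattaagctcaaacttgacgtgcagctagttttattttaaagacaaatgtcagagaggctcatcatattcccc
Elf3, chr1:135258463-135258722, minus strand: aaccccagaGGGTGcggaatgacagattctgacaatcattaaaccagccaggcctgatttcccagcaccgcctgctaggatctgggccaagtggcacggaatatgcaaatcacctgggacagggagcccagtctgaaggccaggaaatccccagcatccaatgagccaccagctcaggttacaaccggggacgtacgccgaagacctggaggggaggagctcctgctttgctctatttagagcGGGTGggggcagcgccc
Grhl3, chr4:135573623-135573882, minus strand: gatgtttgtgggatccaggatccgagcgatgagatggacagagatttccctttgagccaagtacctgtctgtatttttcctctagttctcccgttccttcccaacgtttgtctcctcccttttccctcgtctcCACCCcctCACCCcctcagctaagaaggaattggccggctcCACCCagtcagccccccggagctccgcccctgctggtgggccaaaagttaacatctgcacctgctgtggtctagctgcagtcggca
CACCC stood in 3 of the 5 windows, 3 times in Grhl3, 2 times in Elf3 and 1 time at the upstream Pax6 start, and 57.5% of all 32851 windows held it. The downstream Pax6 window held the ETS motif GGAAGT, found in 23.8% of all windows. It also held the Sox motif ACAAAG, which 18.7% of all windows share and which lies before the ETS match without touching it. The OVO motif CCGTTA was in none of the 5 windows and in 2.76% of all. The p63 motif, searched as ACATGT, was absent from the 5 and present in 5.28% of all windows. The paired domain motif TTCACGC was likewise not seen in the 5 windows and was seen in 1.26% of all. The TATA box, searched as TATAAA, was in none of the 5 and in 13.6% of all windows. The 8-base grainyhead palindrome had no match in the 5, and 0.146% of all windows held it. The Klf4 window matched no motif and had a G and C content of 74.3%, when the median over all windows was 52.7%. These are matches of letters in the reference sequence and say nothing of binding in either tissue.

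Pax6 (ENSMUSG00000027168.21, chr2:105668900-105697364, plus strand, GRCm38) had 18145 corneal and 10507 limbal reads. It was 1.62-fold higher in the cornea, with a log2 ratio of -0.69 (-0.73 to -0.66). Lens, retina and pigmented tissue also use Pax6, and their markers were higher in the limbus. Cryaa, a lens crystallin, had 468 corneal and 5423 limbal reads, and the summed retinal markers stood at 24.6 RPM in the cornea against 281 in the limbus. The part of these tissues in the Pax6 value was not tested. Pax6os1, which is annotated on the opposite strand of the locus, had 207 and 109 reads, few beside those of Pax6. The library kit kept the strand, but whether the counting used it is not given in the sources used here. Of the other Pax genes, Pax2, Pax4, Pax7 and Pax8 were listed at 0, and Pax3, Pax5 and Pax9 had no more than 3 reads in a library. Pax1, a regulator of the skeleton and thymus, had 4 corneal and 9 limbal reads, and its interval of -0.58 to 3.42 included 0.

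Genes that Pax6 and the Klf factors control in the cornea were higher in the cornea for the most part. Of 8 such genes with enough reads, 7 were beyond counting error towards the cornea (40.6% of all genes) and 1 towards the limbus (33.2%). More than 2-fold higher in the cornea were 5 (8.99% of all genes), and the median log2 ratio was -1.20. Under the pan-epithelial scaling the median was -0.68, and 3 of the 8 lay on the limbal side (75.7% of all genes). Krt12, Aldh3a1 and Tkt also belong to the corneal epithelium markers above, so the 2 lists are not separate evidence. Slurp1, a secreted Ly6-type protein and a known Klf4 target, had the lowest ratio at -2.55 (52346 and 8383 reads in cornea and limbus), followed by Krt12, a Pax6 and Klf4 target, at -2.19. At the other end stood Gsn, the actin-severing protein gelsolin, at 0.69 (22758 and 34448 reads), and E-cadherin, Cdh1, at -0.13 (10556 and 9038 reads). The sign of Cdh1, itself a gene of the pan-epithelial list, turned when libraries were scaled to total or pan-epithelial reads. Pax6 itself differed less between the tissues than these 2 lowest targets did.

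Klf4 (ENSMUSG00000003032.8, chr4:55527143-55532466, minus strand) had 26458 corneal and 10248 limbal reads. It was 2.42-fold higher in the cornea, and its log2 ratio of -1.27 (-1.31 to -1.24) was the lowest of the set, with 4.88% of all genes below it. Klf5 (ENSMUSG00000005148.8, chr14:99298691-99315036, plus strand) had 2560 corneal and 3282 limbal reads. Klf5 was 1.37-fold higher in the limbus, with a log2 ratio of 0.45 (0.38 to 0.53). These related factors therefore stood on opposite sides. For each Klf5 read there were 10.3 Klf4 reads in the cornea but 3.12 in the limbus, not corrected for length. This difference of 1.73 in log2 ratio (1.64 to 1.81) is free of any scaling of the libraries, since both genes were read in the same libraries. No other annotated gene overlaps either locus.

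The KLF family gave a mixed picture around these members. Of 17 Klf symbols, Klf14 and Klf17 were listed at 0, Klf1 and Klf8 had no more than 3 reads in the cornea, and 13 had enough reads. Of these 13, 4 exceeded 2-fold towards the limbus (15.5% of all genes) and 2 towards the cornea (8.99%). The median over the 11 that are not members was 0.50. Klf3, a repressor with the highest mean of normalized reads among the non-members, had 4834 corneal and 2244 limbal reads, a log2 ratio of -1.01 (-1.08 to -0.94). Klf2, known from blood vessel endothelium and lymphocytes, had 59 and 247 reads, a log2 ratio of 2.16 (1.75 to 2.60). The metabolic regulator Klf15 had 18 and 125 reads (2.89, from 2.17 to 3.69), Klf12 had 12 and 73 (2.70, from 1.81 to 3.72) and Klf13, which is active in lymphocytes and heart, had 270 and 771 (1.61, from 1.41 to 1.81).

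**Figure D5:**
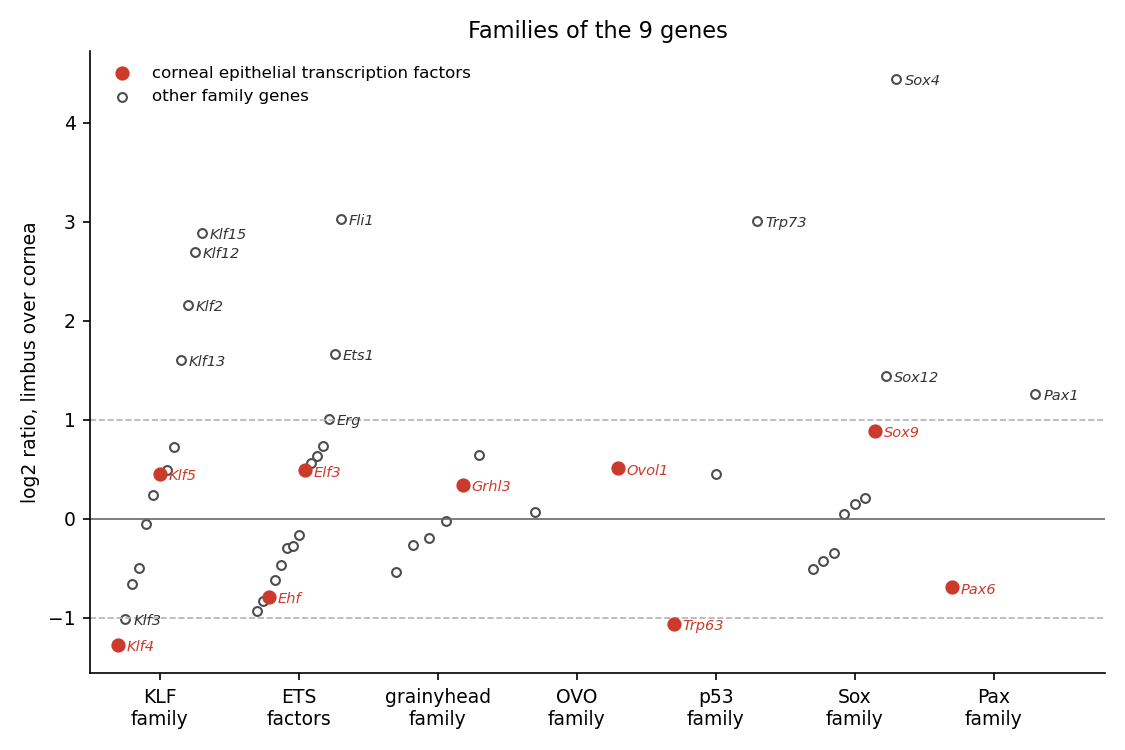
The log2 ratio of the limbus over the cornea for the genes of 7 families with more than 3 reads in both libraries, the 9 factors filled in red and other family genes open, with dashed lines at 2-fold and names given for the factors and for genes past 2-fold. Klf4 at -1.27 and Klf5 at 0.45 stand on opposite sides of 0, as do Ehf at -0.79 and Elf3 at 0.49, and Trp73 at 3.01 stands apart from Trp63 at -1.06.

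Ehf (ENSMUSG00000012350.15, chr2:103263433-103303278, minus strand) had 18391 corneal and 9963 limbal reads. It was 1.73-fold higher in the cornea, with a log2 ratio of -0.79 (-0.82 to -0.75). Elf3 (ENSMUSG00000003051.13, chr1:135253575-135258568, minus strand) had 20108 corneal and 26422 limbal reads. Elf3 was 1.40-fold higher in the limbus, with a log2 ratio of 0.49 (0.46 to 0.52). For each Elf3 read there were 0.915 Ehf reads in the cornea but 0.377 in the limbus, not corrected for length. The difference in log2 ratio was 1.28 (1.23 to 1.32), whatever the scaling. Conjunctival epithelium also uses Elf3. Its keratin Krt19, which the study also took as a gene to expect in the limbus, had 1417 corneal and 30740 limbal reads. The part of conjunctival epithelium in the Elf3 value was not tested. Gm26642 is annotated on the opposite strand of Elf3 and had no row of its own.

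All of the 15 epithelial and related ETS genes had enough reads. Of these, 6 were beyond counting error towards the limbus (33.2% of all genes) and 7 towards the cornea (40.6%). The list median was -0.16, and it turned positive under the total and pan-epithelial scalings. Towards the limbus, 3 genes exceeded 2-fold (15.5% of all genes), and all 3 are known from endothelium and blood cells. Fli1 had 9 corneal and 69 limbal reads (log2 ratio 3.03, from 2.03 to 4.22), Ets1 had 108 and 321 (1.67, from 1.35 to 1.996) and Erg had 418 and 790 (1.01, from 0.84 to 1.19). None exceeded 2-fold towards the cornea, as 8.99% of all genes did. Ets2, whose mean of normalized reads was the highest among the non-members of the list, had 2562 and 3727 reads, a log2 ratio of 0.64 (0.56 to 0.71).

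Trp63 (ENSMUSG00000022510.14, chr16:25683763-25892102, plus strand) had 8737 corneal and 3929 limbal reads. It was 2.08-fold higher in the cornea, with a log2 ratio of -1.06 (-1.11 to -1.003), and 7.84% of all genes had a lower ratio. The table gives 1 value per gene, so the TA and ΔN forms of p63 could not be separated. The small genes Gm24928 and Gm27005 lie within the locus and had no row of their own. Of the p53 family, Trp53 had 943 corneal and 1209 limbal reads (0.45, from 0.33 to 0.58). Trp73, which encodes p73, a factor of multiciliated cells and neurons, had 42 and 316 reads, a log2 ratio of 3.01 (2.54 to 3.51). Trp63 also stood below Pax6 by 0.36 (0.30 to 0.43) in log2 ratio, so that it differed from the eye regulator beyond counting error.

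Basal epithelial genes that p63 controls were beyond counting error towards the cornea in 9 of 12 cases (40.6% of all genes). Towards the limbus 3 were (33.2% of all genes), and the median log2 ratio was -0.52. Under the pan-epithelial scaling 6 of the 12 lay on the limbal side, with a median of -0.0022. Perp is among the 12 and is also a main gene of that scale, so the scale is not independent of this list. Bnc1, a zinc finger protein of basal keratinocytes, had 2957 corneal and 500 limbal reads (-2.47, from -2.61 to -2.33). Col17a1, the transmembrane collagen of hemidesmosomes, had 65707 and 24775 reads (-1.31, from -1.33 to -1.29). Against these stood Krt14, a basal keratin, with 9952 and 53574 reads (2.52, from 2.49 to 2.56), and Lamb3, a chain of laminin-332, with 1224 and 1820 (0.67, from 0.56 to 0.77). With the size factors of the table, Krt14 and Trp63 were thus each past 2-fold and on opposite sides. The study took Krt14, like Krt19, as a gene to expect in the limbus.

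Grhl3 (ENSMUSG00000037188.7, chr4:135541888-135573630, minus strand) had 2431 corneal and 2893 limbal reads. It was 1.27-fold higher in the limbus, with a log2 ratio of 0.35 (0.27 to 0.43). With the size factors of the table this was the smallest difference of the set, but with total or pan-epithelial reads that of Pax6 was smaller. Ovol1 (ENSMUSG00000024922.2, chr19:5549136-5560646, minus strand) had 1392 corneal and 1855 limbal reads. It was 1.42-fold higher in the limbus, with a log2 ratio of 0.51 (0.41 to 0.61). The difference between both was 0.16 (0.03 to 0.29). Gm31166 and AC126029.1 overlap Ovol1 and had no row of their own.

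With the size factors of the table, the closest relatives of Grhl3 lay on the other side of 0. Grhl1, whose mean of normalized reads was the highest of the list, had 4906 corneal and 4014 limbal reads, a log2 ratio of -0.19 (-0.25 to -0.13) that turned positive under the total and pan-epithelial scalings. Grhl2, which maintains epithelial junctions, had 3082 and 1987 reads (-0.54, from -0.62 to -0.46). The pan-epithelial scaling brought Grhl2 to just below 0, with an interval that included 0. None of the 6 grainyhead genes exceeded 2-fold in either direction, as 24.4% of all genes did. Ovol2 had 289 corneal and 283 limbal reads, and its interval of -0.18 to 0.31 included 0. Ovol3 had no row.

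Of 8 barrier genes with enough reads, from a list drawn up for Grhl3 and Ovol1, 6 were beyond counting error towards the limbus (33.2% of all genes). Whether either factor controls each of these genes was not tested. The cornea side held 2 (40.6% of all genes), and the median log2 ratio was 0.42. Cldn1, a tight junction claudin, had 392 corneal and 1112 limbal reads (1.60, from 1.43 to 1.77), and Sprr1a, a cornified envelope precursor, had 265 and 656 (1.40, from 1.20 to 1.61). Dsg1a, a desmosomal cadherin, had 22856 and 4839 reads (-2.14, from -2.19 to -2.10), and Ivl, the envelope protein involucrin, had 566 and 287 (-0.88, from -1.09 to -0.68). Sprr1b and Sprr2a1 were listed at 0, and Lor had 2 corneal and 1 limbal reads. The epidermal keratin Krt10 had 232 and 254 reads, with an interval of -0.04 to 0.49 that included 0.

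The Ovol and Grhl factors oppose mesenchymal transition factors. Of 6 such factors 4 were more than 2-fold higher in the limbus (15.5% of all genes), with a list median of 1.42. Zeb2 had 43 corneal and 251 limbal reads (2.64, from 2.17 to 3.14), and Snai1 had 22 and 112 (2.44, from 1.77 to 3.17). Snai2 had 483 and 372 reads (-0.28, from -0.48 to -0.08) and Twist1 had 314 and 243 (-0.27, from -0.52 to -0.03), and both turned positive under the pan-epithelial scaling. Stromal, vascular and immune cells also use these factors, and the part of such cells in the values was not tested.

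Sox9 (ENSMUSG00000000567.5, chr11:112782224-112787760, plus strand) had 319 corneal and 554 limbal reads, the fewest of the set. It was 1.86-fold higher in the limbus, with a log2 ratio of 0.89 (0.69 to 1.10), the highest of the set, and 83.2% of all genes had a lower ratio. Its interval reached past 2-fold. For each Sox9 read there were 27.4 Trp63 reads in the cornea but 7.09 in the limbus, a difference of 1.95 (1.74 to 2.16) in log2 ratio that does not depend on the scaling. Glial and cartilage cells also use Sox9. Schwann cell markers summed to 193 RPM in the cornea against 372 in the limbus. Cartilage markers summed to 1.92 RPM in the cornea against 9.39 in the limbus. Among them Acan had 0 and 3 reads, Col2a1 had 2 and 19, and Comp, which tendon also makes, had 4 and 147. Comp thus gave most of the 199 limbal reads of the list. Col9a1 went the other way, with 44 of the 50 corneal reads of the list and 30 limbal reads, though its interval included 0. The part of Schwann cell and cartilage RNA in the Sox9 value was not tested.

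Of 8 partners and cartilage targets of Sox9, 4 had more than 3 reads in both libraries. Col11a2, a fibrillar collagen of cartilage, had 42 corneal and 107 limbal reads (1.44, from 0.92 to 1.996). Sox6, a partner of Sox9, had 197 and 137 (-0.43, from -0.75 to -0.11), which turned positive under the pan-epithelial scaling. Col9a1 had 44 and 30, with an interval of -1.18 to 0.25 that included 0.

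Of 19 Sox symbols, 3 were listed at 0, 7 had no more than 3 reads in a library and 9 had enough reads. Towards the limbus 2 of these exceeded 2-fold (15.5% of all genes), and towards the cornea none (8.99% of all genes). Sox4, active in progenitor and mesenchymal cells, had 11 corneal and 224 limbal reads (4.44, from 3.58 to 5.47), and Sox12, of the same subgroup, had 48 and 122 (1.44, from 0.95 to 1.95). Sox15, which had the highest mean of normalized reads of the list, had 1692 and 1112 (-0.51, from -0.62 to -0.40), and it crossed to just above 0 under the pan-epithelial scaling. The glial factor Sox10 had 2 and 115 reads, and the endothelial factors Sox17 and Sox18 had 0 and 70 and 1 and 198.

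In the order of the ratios some neighbors could not be told apart. Grhl3 and Klf5 differed by 0.11 (-0.00 to 0.22), Klf5 and Elf3 by 0.04 (-0.04 to 0.12) and Elf3 and Ovol1 by 0.02 (-0.08 to 0.13). Sox9 stood above Ovol1 by 0.38 (0.16 to 0.61). On the cornea side each neighbor differed, Klf4 from Trp63 by 0.22 (0.15 to 0.28), Trp63 from Ehf by 0.27 (0.20 to 0.33) and Ehf from Pax6 by 0.10 (0.05 to 0.15). The widest gap in the order, 1.04 (0.95 to 1.13), lay between Pax6 and Grhl3, where the ratio passed through 0. As this gap compares genes within libraries, it is the same under each scaling.

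The likeness of other transcription factors to each member was measured as the absolute difference in log2 ratio, over 2 libraries and 56 candidate factors with a mean of at least 50 normalized reads. Klf3 was nearest to Trp63, the AP-2 factor Tfap2a to Ehf, and Prdm1, known as Blimp1, to Pax6. Klf10 was nearest to Grhl3, Trp53 to Klf5, Klf11 to both Elf3 and Ovol1, and Runx2 to Sox9. With 1 ratio per gene, likeness says only that the ratios are close.

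Among 15 other epithelial regulators with enough reads, 6 were beyond counting error towards the limbus (33.2% of all genes) and 7 towards the cornea (40.6%). Their median log2 ratio was 0.02. Barx2, a homeobox factor of the conjunctiva and lacrimal gland, had 45 corneal and 1242 limbal reads (4.88, from 4.45 to 5.35), and Foxn1, a factor of thymus and hair follicle, had 11 and 80 (2.96, from 2.04 to 4.02). Satb1, a chromatin organizer that p63 controls in keratinocytes, had 1052 and 247 (-1.99, from -2.20 to -1.79). The 9 members therefore lay within the range of these regulators.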

How the data were processed

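Total RNA of pooled limbal rims and corneal buttons was sequenced in paired-end mode. Per the study's methods, adaptors were trimmed, reads aligned against GRCm38 (mm10) with CLC Genomics Workbench 20, and a trimmed mean of M-values used for normalization. The version and settings of the differential expression tool that wrote the table are not given in the sources used here. The deposited table holds 1 comparison with 40904 rows, of which 17484 name no gene and were left out. Its mean column is a signal, the authors' mean over libraries of reads divided by a size factor. Its log2 fold change, standard error and p-value columns are the authors' own comparison; the p-values were not used, and the log2 fold change and error served only to choose among the read numbers that the mean allows. None of these is printed. The header names no tissue, and the direction, cornea over limbus, was taken from the study's account of its comparison.

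The mean moved by 102 parts per corneal read and 109 parts per limbal read. It was thus a sum of whole reads of 2 libraries with size factors of 1.0337 (cornea) and 0.9674 (limbus). Of 17442 genes above 0, 6143 allowed 1 pair of read numbers and 11299 several; for the latter the pair was chosen by a negative binomial model, and 15845 genes met the deposited values within 0.001. Each of the 9 members allowed several pairs, from 8 for Sox9 to 444 for Elf3. Their reads and ratios therefore rest on the deposited fold change and error through this model. For the 9 members the chosen pair missed the deposited fold change and error by at most 0.000187 and the next best pair by at least 0.0121. On 17056 genes simulated with the same model and size factors all pairs were found exactly. As the model was shared, this checks the steps only and not whether the deposited values follow the model. Ratios are limbus over cornea, in log2, with exact Clopper-Pearson intervals; a gene counted as tested with more than 3 reads in both libraries. With 1 library per tissue there was no test across samples, and a fold of 2 or an interval without 0 stands in for a call. Differences between members are exact conditional odds ratios of reads. Alternatives were 3 other scalings, a further scaling to the pan-epithelial median chosen after seeing the data, a pseudocount of 1, a mean of at least 50, a 1.5-fold limit and read pairs chosen by the fold change alone.

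Rows were taken by gene symbol. Of 18554 accessions of the table found in RefSeq, 2 belonged to the gene named in their row, whereas by symbol 97.7% of 1102 olfactory receptor genes were at 0 and 72 ribosomal protein genes had a median signal of 18760. Exon lengths and coordinates came from GENCODE M21. Python 3.11.15, scipy 1.17.1, numpy 2.4.6 and pandas 2.3.3 were used. The 9 members and all lists were chosen with earlier results of these data known. All members are named; of family lists, genes past 2-fold and the most abundant other gene; of other lists, the 2 highest and 2 lowest ratios and defining markers; and for likeness, the factor nearest in ratio. A few genes that these rules would name are not reported here.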

Additional observations from a re-analysis of the deposited data

How the results depend on the processing

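All 9 members kept their direction and stayed beyond counting error, 5 towards the limbus and 4 towards the cornea, under total-read scaling, the trimmed mean of M-values, both pan-epithelial scalings, read pairs by fold change alone and a mean of at least 50. With total-read scaling 1 member was past 2-fold towards the limbus and 1 towards the cornea, with a median of 0.55. With pan-epithelial scaling the counts were 3 and 0, with a median of 0.87. With the pan-epithelial median set to 0, a scaling added after seeing the data, they were 1 and 1, with a median of 0.52. The shares of all genes past 2-fold were taken with the size factors of the table only. At 1.5-fold the member counts were 1 and 4 with these size factors, 4 and 2 with total reads and 5 and 1 with pan-epithelial reads. The trimmed mean, the pseudocount of 1, the mean of at least 50 and the pairs by fold change alone left these counts and the median within their limits. Medians of 3 lists changed sign under total-read and pan-epithelial scaling, to 0.043 and 0.36 for the ETS factors, 0.10 and 0.42 for the grainyhead family and 0.032 and 0.35 for the pan-epithelial genes, since each scaling adds a constant to every gene. No paired analysis was possible because the table has no value for a numbered sample, and for the same reason no replicate could be left out. Counting error limits Sox9 most, with 319 and 554 reads, and the spread between animals is unknown. The pseudocount was not applied to the counting intervals. Protein identity between related members was not run.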
